A study of Sus scrofa with 8 samples.

Results

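The genes of fibronectin and of 8 other secreted proteins of the extracellular matrix, most of them glycoproteins, were followed through the active histone marks and the CTCF sites of pig embryonic fibroblasts (PEFs). The 9 genes were FN1, SPARC, THBS1, TNC, POSTN, FBN1, ELN, LOX and VCAN. They were chosen by name from the RefSeq annotation of the pig genome Sscrofa11.1, in which each symbol marks 1 gene, and they are 9 of 19487 protein-coding genes and of 28077 genes of any kind on chromosomes 1 to 18 and X. Peaks were assigned to a gene when they lay within 1 kb of its annotated start or of another annotated transcript start, in the gene body, or within 100 kb of the gene.

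Fibroblasts build and remodel the matrix around them. Fibronectin is laid down early as a fibrillar scaffold to which cells attach through integrins. The matricellular proteins SPARC, thrombospondin 1, tenascin C and periostin modulate adhesion and matrix assembly. Fibrillin 1 microfibrils carry elastin, which lysyl oxidase cross-links, and versican is a large proteoglycan that binds hyaluronan. Trimethylated lysine 4 of histone H3 (H3K4me3) is found at promoters, active ones among them. Acetylated lysine 27 of histone H3 (H3K27ac) marks active promoters and enhancers. The DNA-binding protein CTCF occupies a directional motif and takes part in chromatin looping.

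The study examined chromatin architecture in pig embryos and fibroblasts, and the fibroblast ChIP-seq libraries are the data used here. There was no treatment, genotype or time contrast. All PEFs came from 35-day fetuses of Large White pigs and were cultured for 24 h in medium with 15% fetal bovine serum. H3K4me3, H3K27ac and CTCF had 2 replicates each, and the 2 input samples were not analysed here as files of their own. The labels do not say whether the replicates came from separate cultures or fetuses, so the difference between replicates may be technical.

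The H3K4me3 lists held 37932 and 43516 peaks, the H3K27ac lists 74983 and 81164, and the CTCF lists 40289 and 44682. The files give no read counts, so the depth behind a peak is unknown and no counting interval can be given. Values below are given for replicate 1 and then replicate 2. Fold enrichment is the authors' value at the peak summit over the control, and its median over all H3K4me3 peaks was 9.19 and 6.15, so genes are also placed by percentile within a library. All 11 fibroblast markers examined had H3K4me3 and H3K27ac at a start in both replicates, against 72.0% and 63.7% of protein-coding genes. Of 22 markers of other cell types, 8 had H3K4me3 and 2 had H3K27ac, SPI1 of blood cells and MYOG of muscle, which are named after their values were seen. The 4 epithelial markers had H3K4me3 in both replicates and none had H3K27ac at a start.

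Around the annotated starts, the genes fell into 3 arrangements. For FN1 and SPARC the strongest H3K4me3 peak lay away from the annotated start. For VCAN it lay at a group of downstream starts. For the other 6 genes it lay over the gene start. The sequences that go with these positions are printed 5′ to 3′ on the strand of the gene, from the Sscrofa11.1 reference. The first is the CpG-richest stretch of 200 bases under the FN1 peak, at chr15:117730995-117731194 on the minus strand, with its midpoint 6.05 kb inside the gene. Capitals mark a cAMP response element (TGACGTCA), a CCAAT box and a TATA box (TATAAA), letters that were chosen after the sequence was seen.
FN1 inside the peak: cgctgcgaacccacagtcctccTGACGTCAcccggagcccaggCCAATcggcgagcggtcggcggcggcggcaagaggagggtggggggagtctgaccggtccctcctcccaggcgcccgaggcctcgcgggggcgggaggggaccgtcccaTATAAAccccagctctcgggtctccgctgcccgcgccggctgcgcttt
For comparison, the stretch before each annotated start is given next, with capitals marking CpG dinucleotides. The FN1 stretch is chr15:117737146-117737345 on the minus strand.
FN1 before the annotated start: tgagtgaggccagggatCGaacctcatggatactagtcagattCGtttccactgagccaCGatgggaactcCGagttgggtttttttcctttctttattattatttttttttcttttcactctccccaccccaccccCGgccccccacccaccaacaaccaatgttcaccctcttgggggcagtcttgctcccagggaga
The SPARC stretches are chr16:71358093-71358292 under the peak and chr16:71367964-71368163 before the start, both on the plus strand.
SPARC inside the peak: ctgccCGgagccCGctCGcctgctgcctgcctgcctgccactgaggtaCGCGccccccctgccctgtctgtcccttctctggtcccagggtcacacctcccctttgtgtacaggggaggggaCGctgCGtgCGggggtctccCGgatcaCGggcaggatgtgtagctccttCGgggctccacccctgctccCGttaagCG
SPARC before the annotated start: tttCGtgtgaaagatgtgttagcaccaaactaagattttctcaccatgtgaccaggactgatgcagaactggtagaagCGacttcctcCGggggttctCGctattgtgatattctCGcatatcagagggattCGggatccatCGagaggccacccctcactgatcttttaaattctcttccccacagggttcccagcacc
The VCAN stretches precede the gene start, at chr2:91681977-91682176, and the first of the downstream starts, at chr2:91699220-91699419, both on the plus strand.
VCAN before the gene start: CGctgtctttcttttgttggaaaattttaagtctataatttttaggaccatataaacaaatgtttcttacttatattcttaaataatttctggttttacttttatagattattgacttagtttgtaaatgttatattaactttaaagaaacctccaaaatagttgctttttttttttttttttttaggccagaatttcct
VCAN before the downstream start: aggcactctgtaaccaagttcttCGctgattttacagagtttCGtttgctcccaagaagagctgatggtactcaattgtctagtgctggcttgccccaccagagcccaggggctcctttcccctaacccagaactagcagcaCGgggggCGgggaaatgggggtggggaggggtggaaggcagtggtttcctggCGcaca
POSTN, whose marks at the start were weak, is shown at chr11:13258974-13259173 on the minus strand.
POSTN before the annotated start: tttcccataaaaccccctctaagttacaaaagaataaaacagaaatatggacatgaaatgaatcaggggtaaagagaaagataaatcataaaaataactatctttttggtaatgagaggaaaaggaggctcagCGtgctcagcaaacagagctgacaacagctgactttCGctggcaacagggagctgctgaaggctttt

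The stretches under the peaks were picked for their CpG, so higher counts there were built into the comparison. The FN1 stretch under the peak held 24 CpG and was 73.5% G+C. The stretch of the same length before the annotated start held 5 CpG and was 51.0% G+C. In the reference, 74.5% of the bases before the annotated start were soft-masked as repeats, against 22.0% of those under the peak. The cAMP response element began 5973 bp inside the gene, the CCAAT box at 5994 bp and the TATA box at 6103 bp. As background, mammalian fibronectin promoters are known for such a response element, a CCAAT box and a TATA box. Over all 19487 protein-coding genes, with promoters taken from 250 bases before to 50 bases after the gene start, the 3 elements occurred in this order on the gene strand in 1 promoter. On either strand TGACGTCA occurred in 2.26% of promoters, CCAAT in 35.3% and TATAAA in 10.8%. The letters and their order were read from the FN1 stretch, so these frequencies are no test of it. Whether transcription starts there was not measured. The stretch overlapped exon 3 of the annotated FN1 transcript, and the next exon began at 6377 bp. For SPARC the stretch under the peak held 13 CpG and the stretch before the start 7. The direction was the same where the peak lay over the start, as at TNC, with 15 against 4, and LOX, with 28 against 14. The VCAN stretch before the gene start held 1 CpG and was 23.0% G+C, and the stretch before the downstream start held 5 CpG and was 57.0% G+C. The POSTN stretch held 2 CpG and was 39.5% G+C.

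Within 1 kb of the gene start in both replicates, 7 of 9 genes had an H3K4me3 peak, against 68.9% of protein-coding genes. Counting any annotated start, 8 of 9 had one, against 72.0%. H3K27ac was present at the gene start of 8 of 9 genes, against 60.7%, and at some annotated start of all 9, against 63.7%. CTCF was present at the gene start of 2 of 9, THBS1 and ELN, against 17.9%, and the same 2 genes were counted with any annotated start, against 20.8%. The strongest H3K4me3 peak, sought from 10 kb before the gene start to the gene end, lay over 1 kb from every annotated start in both replicates for 2 of 9 genes, FN1 and SPARC, against 10.3% of the 15282 genes with such a peak. These counts are a description, and no test was made of them.

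FN1 encodes fibronectin. It lies at chr15:117658158-117737145 on the minus strand and has 1 annotated transcript. At its annotated start H3K4me3 was weak, with folds of 3.13 and 5.38 over peaks of 620 and 604 bp. The strongest H3K4me3 peak ran from 3674 to 16833 bp inside the gene in replicate 1 and from 2648 to 19095 bp in replicate 2. It was 13.2 and 16.4 kb wide, with folds of 44.0 and 45.3 and summits at 6.59 and 7.38 kb. In genome coordinates these peaks are chr15:117720312-117733471 and chr15:117718050-117734497. Its width was at percentile 99.7 in both replicates among the strongest peaks of protein-coding genes. Its fold was at percentile 38.7 in replicate 1 and 98.8 in replicate 2, so the replicates placed the height very differently and the width alike.

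H3K27ac covered nearly the whole FN1 gene. In replicate 1 a peak of 23.1 kb with a fold of 30.5 ran from before the annotated start into the gene. In replicate 2 the strongest peak was 17.2 kb wide with a fold of 28.1, and a separate peak over the start had a fold of 7.46. The summits of the strongest peaks lay at 5.32 and 5.36 kb, within 0.1 kb of each other. The FN1 body held 13 and 17 H3K27ac peaks, which covered 91.8% and 87.3% of its 79.0 kb. Among the 5514 protein-coding genes of at least 50 kb, a comparison added after the values were seen, 1 gene had a larger share covered in replicate 1, PRRX1, a mesenchymal transcription factor. In replicate 2 there were 3 such genes, PRRX1, MTCL1 and SEPT9. The median over these long genes was 4.17% and 4.21%.

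By the folds of peaks within 1 kb of any start, the genes most like FN1 over the 6 libraries were LNX1, MISP and HOXB3. Their mean absolute differences in percentile from FN1 were 0.964, 3.86 and 6.03. Since the 3 genes were picked on these folds, their likeness is a description. LNX1, the nearest, had H3K27ac folds of 32.4 and 8.59 where FN1 had 30.5 and 7.46. At FN1 the lower value of replicate 2 belongs to the separate peak over the start, and the strongest peak there had a fold of 28.1.

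SPARC encodes a collagen-binding matricellular protein also called osteonectin. It lies at chr16:71368164-71380972 on the plus strand with 1 annotated transcript. Within 1 kb of its start, H3K4me3 was called in replicate 1, with a fold of 3.68, and was not called in replicate 2. Its strongest H3K4me3 peak lay before the gene, at chr16:71357197-71366324 and chr16:71357151-71366684. The summits were at -9.85 and -9.78 kb, the folds were 64.7 and 38.6, and the widths were 9.13 and 9.53 kb, at percentiles 98.9 and 98.4. The nearer edge of this peak was still 1840 and 1480 bp from the start. The SPARC H3K27ac peak spanned this region, the start and much of the gene. It was 18.6 and 24.5 kb wide with folds of 27.7 and 49.7, and H3K27ac peaks covered 88.4% and 99.2% of the gene body. No other gene start lay between the peak and SPARC. A long noncoding RNA gene on the other strand, LOC110257252, spans the whole locus from a start at 66.9 kb to an end at -71.0 kb, and ChIP-seq peaks carry no strand.

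FN1 and SPARC were also the 2 genes of the 9 with no 5′ untranslated region annotated in any transcript: their coding sequence begins at the first annotated base. Over the genome there were 1792 protein-coding genes of this kind, of which 733 had H3K4me3 peaks in both replicates by the rule above. The strongest peak lay over 1 kb from every start in 30.3% of these, against 9.28% of the 14549 genes with an annotated 5′ untranslated region. This split was looked at after the positions at FN1 and SPARC were seen, and the part of the annotation in the offset was not tested.

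**Figure D1:**
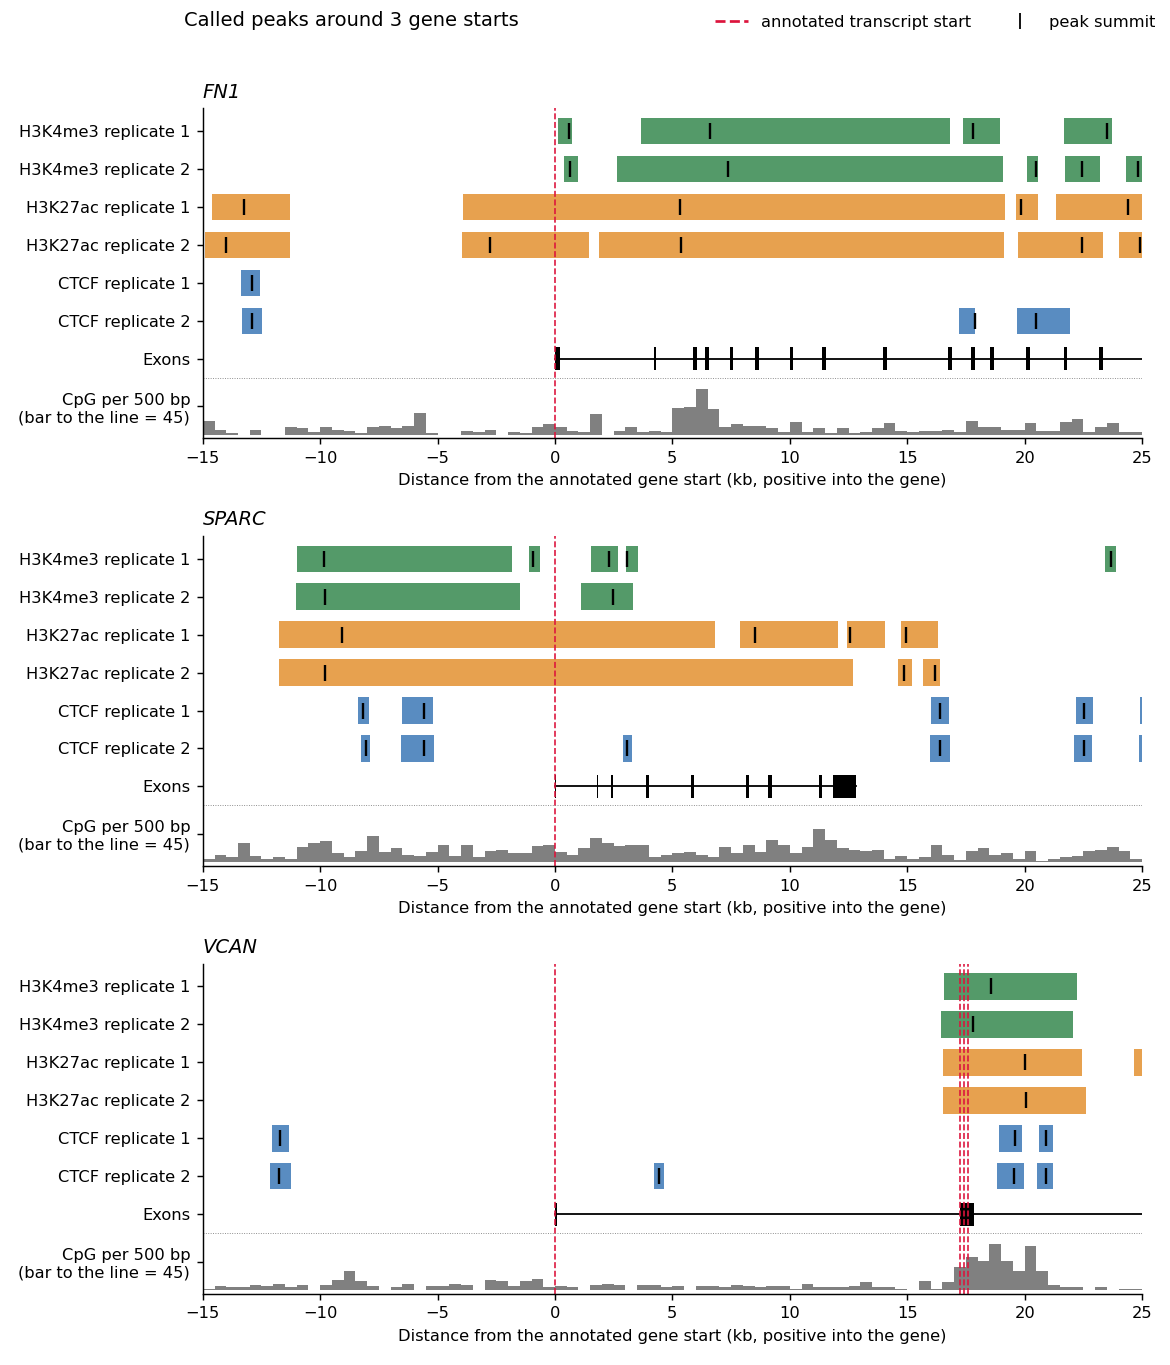
Called peaks of the 6 libraries from 15 kb before to 25 kb inside FN1, SPARC and VCAN, with distance from the annotated gene start in kb on the x axis, peaks as bars, summits as black ticks, annotated transcript starts as dashed lines, exons as black boxes and the number of CpG per 500 bp in grey. The H3K4me3 summits sit at 6.59 and 7.38 kb for FN1, at -9.85 and -9.78 kb for SPARC, and at 18.6 and 17.8 kb for VCAN, where the other annotated starts are.

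VCAN encodes versican. It lies at chr2:91682177-91811674 on the plus strand and has 4 annotated transcripts with 4 starts. At the gene start, which belongs to 1 transcript, none of the 6 libraries had a peak within 1 kb. The other 3 starts lay 17243, 17414 and 17606 bp further in. There H3K4me3 had folds of 54.0 and 26.1 over peaks of 5.65 and 5.61 kb, and H3K27ac had folds of 17.0 and 19.9 over peaks of 5.94 and 6.08 kb. The H3K4me3 summits were 961 and 198 bp past the nearest annotated start. Its width was at percentiles 93.2 and 90.5. Both marks thus lay over the 3 downstream starts and were not called at the outer one.

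THBS1, at chr1:131728781-131746098 on the minus strand, encodes thrombospondin 1, which can activate latent TGF-beta. Its H3K4me3 peak over the start had folds of 51.7 and 22.8 and widths of 7.03 and 7.62 kb, at percentiles 96.9 and 96.5. The H3K27ac peak was wider still, at 11.9 and 13.9 kb, with folds of 24.9 and 25.3. H3K27ac covered 72.8% and 82.4% of the 17.3 kb gene. THBS1 therefore came after FN1 and SPARC in the share of the gene under H3K27ac, in both replicates.

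TNC, at chr1:255533235-255630381 on the minus strand, encodes tenascin C, which is prominent in developing and healing tissue. It has 19 annotated transcripts whose 14 starts lie within 270 bp. A single peak of each histone mark covered all of them. H3K4me3 had folds of 30.3 and 24.7 and widths of 5.66 and 5.30 kb. H3K27ac had folds of 24.7 and 20.8 and widths of 6.88 and 6.70 kb. Over the gene body H3K27ac formed 16 and 17 peaks that covered 23.7% and 29.7%.

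POSTN, at chr11:13225183-13258973 on the minus strand, encodes periostin, a matricellular protein of collagen-rich connective tissue. Its H3K4me3 peak had folds of 8.40 and 10.8, at percentiles 6.26 and 12.9, and widths of 1.92 and 2.11 kb. H3K27ac at the start had folds of 6.22 and 6.26 over 1108 and 855 bp. H3K27ac covered 1.95% and 2.92% of the POSTN body, the lowest share of the 9 genes in both replicates. A noncoding RNA gene on the other strand, LOC102166397, overlaps this start.

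FBN1, at chr1:123102011-123359649 on the plus strand, encodes fibrillin 1, the main protein of microfibrils. Its start had H3K4me3 with folds of 55.9 and 24.6 and widths of 5.63 and 6.81 kb, and H3K27ac with folds of 20.1 and 19.8. The gene is 258 kb long and held 42 and 48 H3K27ac peaks, at percentile 99.8 in both replicates, which covered 89.3 and 86.6 kb. Of these, 34 regions were shared by the replicates, and 31 of the 19487 protein-coding genes had more. Per 100 kb of gene this was 13.2 regions. THBS1 and LOX had more per 100 kb, at 17.3 and 16.8. TNC and ELN had 12.4 and 12.6, and SPARC, FN1, VCAN and POSTN had 7.81, 7.60, 5.41 and 2.96. Some rates rest on few regions, 3 at THBS1, 2 at LOX and 1 each at SPARC and POSTN. Overlapping peaks were merged, so wide cover counts as few regions. FN1 had 6, the widest 29.9 kb, and that of SPARC was 25.8 kb wide. The rate therefore does not measure how much of a gene was covered.

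ELN, at chr3:11214194-11245891 on the plus strand, encodes tropoelastin. Its 28 annotated transcripts start within 230 bp. H3K4me3 had folds of 9.01 and 5.60, at percentiles 6.68 and 5.46, and H3K27ac at the start had folds of 6.28 and 8.61. ELN and POSTN had the 2 lowest H3K4me3 folds of the 9 genes in both replicates, with the order of the 2 reversed between replicates. LOX, at chr2:125595115-125607026 on the minus strand, encodes lysyl oxidase, which acts on elastin and collagen. It had H3K4me3 folds of 65.1 and 29.7 over 4.0 and 4.95 kb, and H3K27ac folds of 25.9 and 26.9. Of the elastic fibre genes, FBN1 had H3K4me3 folds at percentiles 60.5 and 50.3 and LOX at 78.6 and 70.2, while those of ELN were far lower. The protein-coding gene LOC100525452 runs through LOX on the other strand, from a start at 23.9 kb to an end at -113 kb.

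**Figure D2:**
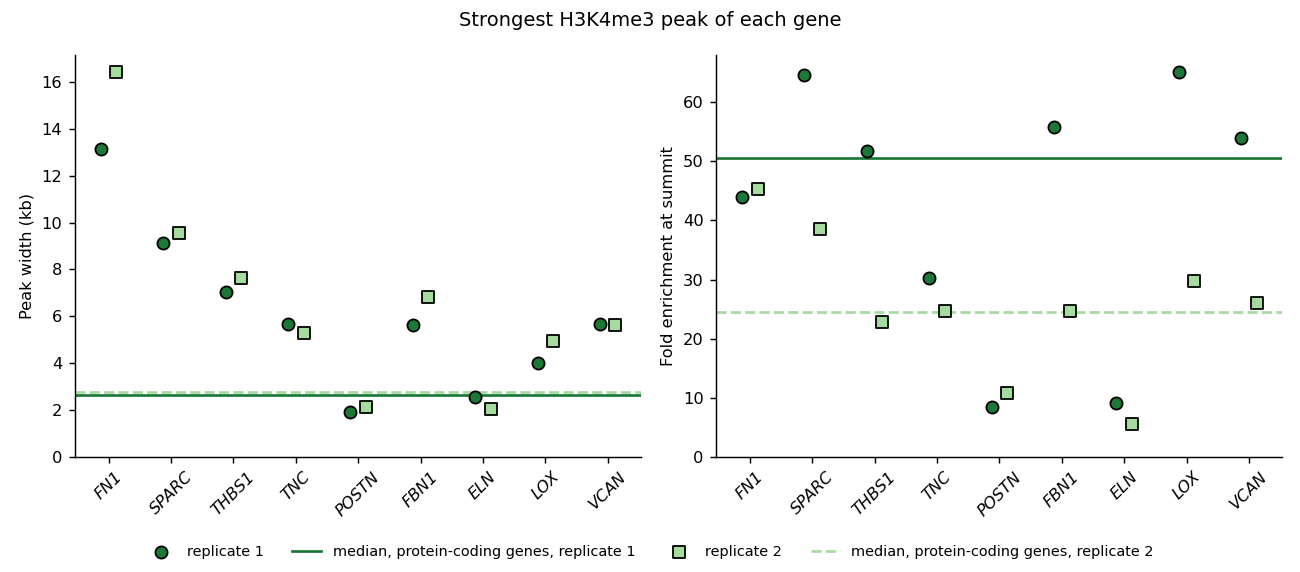
Width in kb (left) and fold enrichment (right) of the strongest H3K4me3 peak of each of the 9 genes, with circles for replicate 1, squares for replicate 2 and lines at the medians of protein-coding genes (2.62 and 2.78 kb, folds of 50.6 and 24.5). FN1 has the widest peak of the 9 in both replicates, and POSTN and ELN have folds of 10.8 or less.

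Over the 9 genes the median width of the strongest H3K4me3 peak was 5653 and 5608 bp, against 2624 and 2783 bp over protein-coding genes. The median fold was 51.7 and 24.7, against 50.6 and 24.5. The genes were thus set apart in width more than in fold, although POSTN and ELN were below the median width in both replicates. In the gene body, the median length under H3K27ac was 12616 and 14268 bp, against 1483 and 1581 bp. The median percentile of the 9 genes, averaged over replicates, was 91.7 for H3K27ac and 92.8 for H3K4me3. Long genes have more room for peaks, so shares of the gene are given too: the median share under H3K27ac was 34.7% and 33.6%, against 5.75% and 6.13%. For H3K4me3 the median share was 6.56% and 7.66%, against 4.84% and 5.46%, so by share the 9 genes lay much nearer to other genes. By share of the gene under H3K4me3, FBN1 was at percentiles 39.7 and 53.1 and TNC at 57.2 and 58.4.

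**Figure D3:**
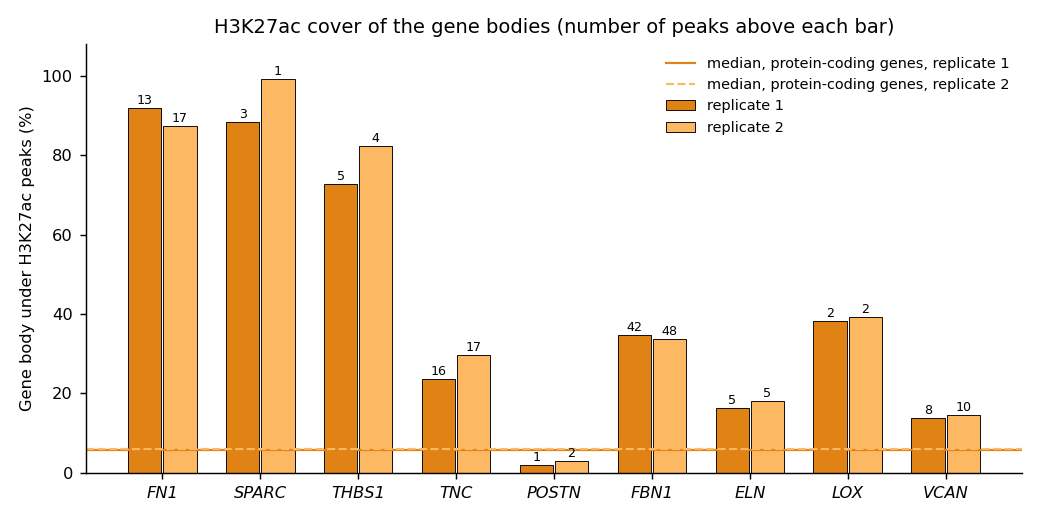
Percent of each gene body under H3K27ac peaks for the 9 genes, with dark bars for replicate 1, light bars for replicate 2, the number of peaks above each bar and lines at the medians of protein-coding genes (5.75% and 6.13%). FN1, SPARC and THBS1 exceed 70% in both replicates, and POSTN stays below the median line.

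The promoters of the 9 genes, taken from 250 bases before to 50 bases after the gene start, differed widely in CpG content. The median over protein-coding genes was 16.0 CpG. FBN1 and LOX had 27 each, THBS1 24 and ELN 19. SPARC had 10, TNC 8, FN1 6, POSTN 3 and VCAN 2, and for FN1, SPARC and VCAN this window is not where the strongest H3K4me3 was found. At the 3 downstream VCAN starts the counts were 9, 14 and 17. The TNC count was 18 at its start at 270 bp, above the median, and from 7 to 10 at its other starts. POSTN, with a low count, and ELN, with a count above the median, both had weak H3K4me3.

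Short motifs were searched on both strands of the same windows. The GC box (GGGCGG), bound by SP1 family factors, occurred at THBS1, FBN1 and LOX, 3 of 9, against 50.7% of all promoters. CCAAT occurred at FN1 and THBS1, 2 of 9, against 35.3%. The TATA box occurred at the VCAN gene start, 1 of 9, against 10.8%. The AP-1 motif (TGANTCA) occurred at POSTN, 1 of 9, against 6.08%, the TEAD motif (GGAATG) at THBS1, 1 of 9, against 11.9%, and the SMAD motif (CAGAC) at 5 of 9, against 45%. These counts use the gene start, which for FN1, SPARC and VCAN is not where the strongest H3K4me3 lay. At other annotated starts, GGGCGG also occurred at the 3 downstream VCAN starts and at the ELN start at 230 bp. CCAAT occurred at the VCAN start at 17414 bp, TATAAA at the POSTN start at 98 bp, and CAGAC at the TNC starts at 63 and 270 bp. No motif contains the letters of another, and a match shows only that the letters are there.

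In the gene bodies and 100 kb flanks together, regions were counted where peaks of both replicates overlapped by at least 1 bp. There were 20 H3K4me3 regions in gene bodies and 37 in the flanks, 70 and 101 for H3K27ac, and 14 and 36 for CTCF. Of the H3K27ac regions, 155 lay away from any annotated gene start. Of these 155, 21.9% overlapped an H3K4me3 peak and 9.03% a CTCF peak, against 25.3% and 12.4% of 47847 such regions over the genome. FBN1 had 46 of them, TNC 27, THBS1 18 and FN1 14, and ELN had the fewest, 8. Longer genes have longer windows, so these counts are not alike in length searched. By number of H3K27ac peaks in such windows over protein-coding genes, FBN1 was at percentile 99.9 in both replicates. TNC was at 98.9 and 98.7, ELN at 64.0 and 58.4, and POSTN at 55.3 and 58.4.

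Several of these regions were as high as the peaks at the starts. For THBS1, a region of 12.4 kb at -69.0 kb had folds of 29.7 and 23.7, against 24.9 and 25.3 at the start. For TNC, a region of 5.99 kb at -46.5 kb had folds of 23.0 and 25, against 24.7 and 20.8. In both genes the order of region and start changed between replicates, so no difference could be told. For POSTN, a region at 67.7 kb, past the end of the gene, had folds of 16.2 and 10.2, against 6.22 and 6.26 at the start, and was higher in both replicates, as was 1 further region at 77.4 kb. For ELN, a region at 45.4 kb, within the neighbouring gene LIMK1, had folds of 7.03 and 11.2, against 6.28 and 8.61. In the other 7 genes no distal region exceeded the peak at a start in both replicates.

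Upstream of FN1, the highest distal regions were at -101 kb, with folds of 19.2 and 15.4, at -64.4 kb, with 18.3 and 13.8, and at -16.9 kb, with 13.5 and 13.3. Upstream of SPARC they were at -20.6 kb, with folds of 22.2 and 26.2, and at -34.8 kb, with 17.9 and 20.2, inside noncoding RNA genes. The highest for LOX was at 78.9 kb, with 21.4 and 16.7, inside SRFBP1, and the highest for VCAN was at -45.3 kb, with 16.3 and 11.4, inside XRCC4. A region was placed with a gene by distance alone, and which gene it acts on was not measured.

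**Figure D4:**
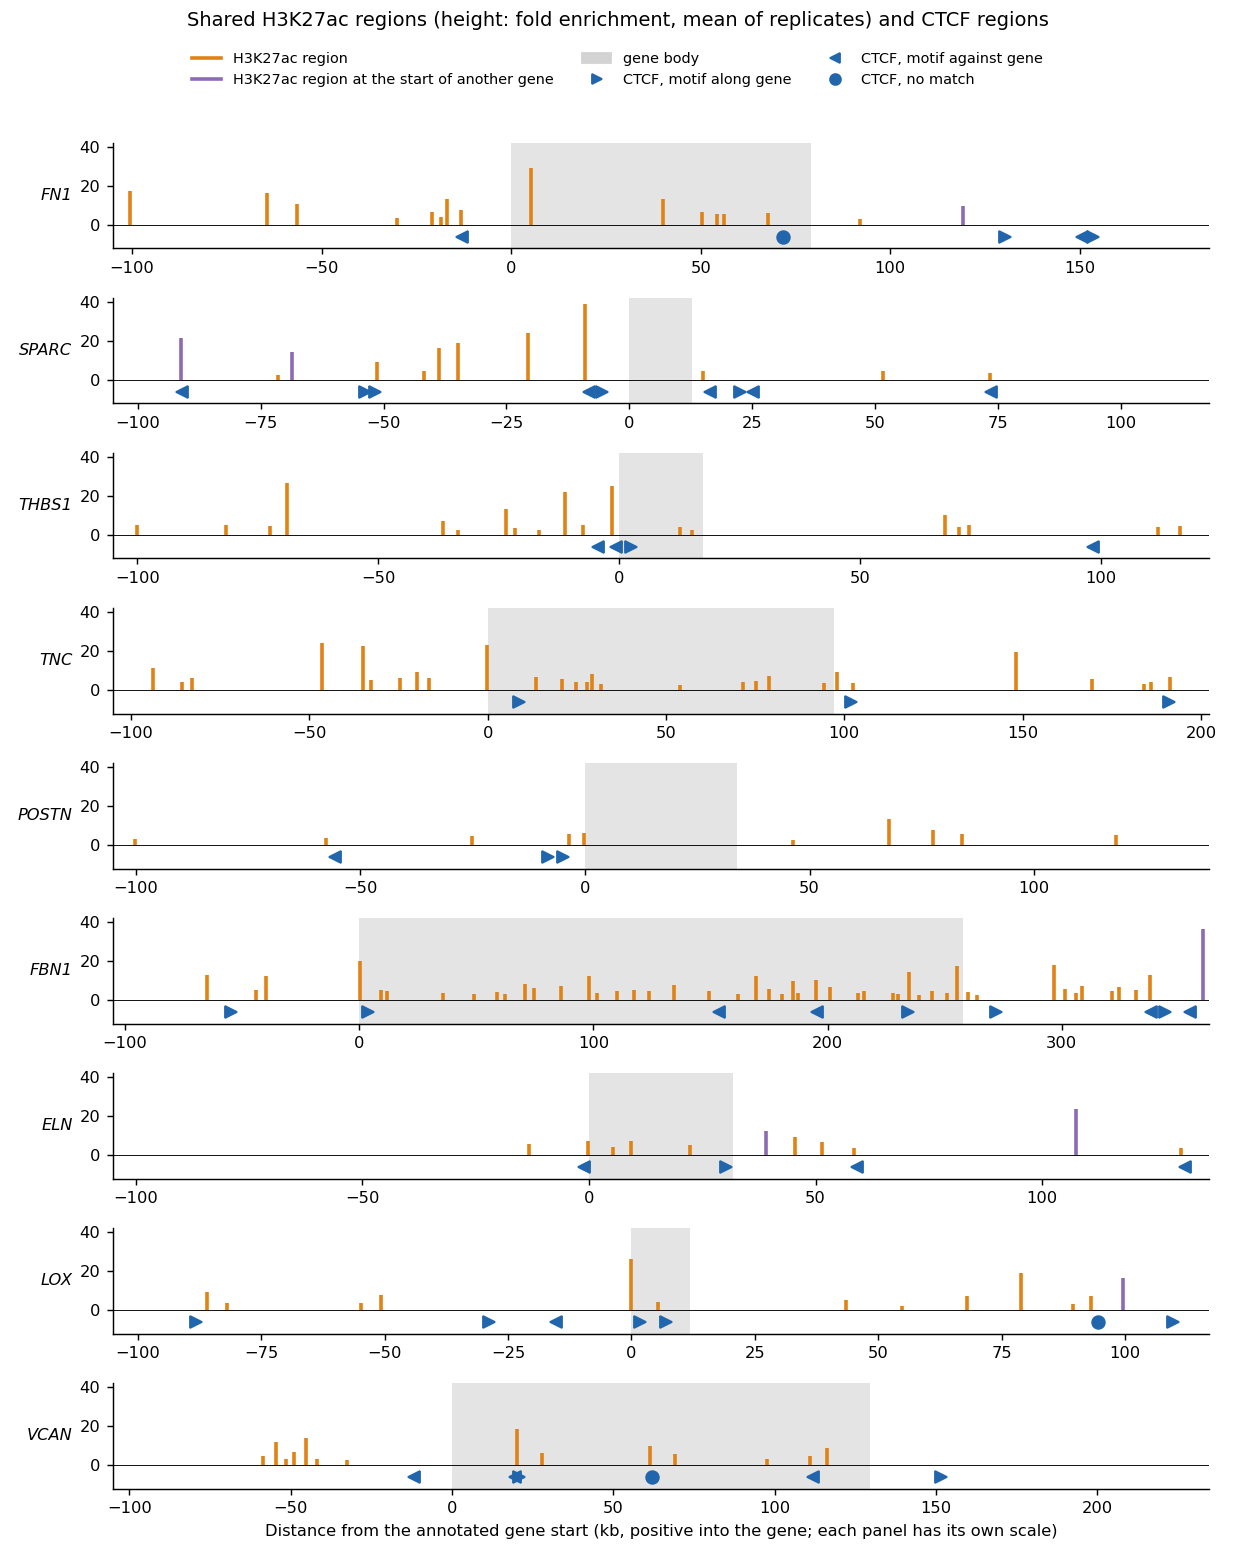
H3K27ac regions shared by the replicates in the window of each gene, drawn at their replicate 1 summit with height the mean fold enrichment, against distance from the annotated gene start in kb; grey marks the gene body, purple marks regions at the start of another gene, and blue symbols mark shared CTCF regions with the direction of their motif. FBN1 and TNC carry many regions inside the gene. Outside the gene, FN1, SPARC, THBS1 and TNC have more regions before the start than past the gene end, and all those of VCAN lie before the start. POSTN, FBN1, ELN and LOX have more past the gene end.

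CTCF was examined with the motif learned from other CTCF peaks of replicate 1, NNNCCACNAGNGGGCGCNN. On the even-numbered autosomes, which were not used to learn it, it matched within 100 bp of the summit in 89.8% of 1796 and 88.2% of 1986 peaks sampled and in 11.9% and 11.3% of equal windows 1 kb away. Of the 50 shared CTCF regions of the 9 genes, 47 had a match, 25 on the strand of the gene and 22 on the other. To show their position and direction, 8 sites at or near the described peaks and starts are printed, each read along the strand of its motif, with the motif in capitals.
FN1 at -12.9 kb, chr15:117750035-117750073: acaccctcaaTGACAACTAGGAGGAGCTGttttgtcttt
SPARC at -5.56 kb, chr16:71362575-71362613: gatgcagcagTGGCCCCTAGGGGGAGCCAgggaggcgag
SPARC at 16.4 kb, chr16:71384573-71384611: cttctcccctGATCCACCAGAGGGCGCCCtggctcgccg
THBS1 at -0.747 kb, chr1:131746850-131746888: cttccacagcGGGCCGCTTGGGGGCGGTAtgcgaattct
POSTN at -8.28 kb, chr11:13267242-13267280: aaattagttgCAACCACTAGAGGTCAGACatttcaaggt
ELN at -1.03 kb, chr3:11213141-11213179: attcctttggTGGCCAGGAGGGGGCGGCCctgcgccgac
LOX at 1.70 kb, chr2:125605306-125605344: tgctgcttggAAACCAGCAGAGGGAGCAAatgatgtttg
VCAN at 19.6 kb, chr2:91701702-91701740: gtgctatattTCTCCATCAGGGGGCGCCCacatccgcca

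The SPARC site at -5.56 kb lay under the offset H3K4me3 peak and had CTCF folds of 55.9 and 44.9, with its motif along the gene. The site at 16.4 kb, just past the gene end, had folds of 40.9 and 65.2 with its motif against the gene, so the 2 motifs face each other across SPARC. They are 2 of 9 shared SPARC sites, 4 with the motif along the gene and 5 against it. A weaker site at -8.16 kb, under the same H3K4me3 peak, had folds of 5.42 and 4.81 and its motif against the gene. Whether the 2 facing sites contact each other was not measured here. The THBS1 site had folds of 33.1 and 44.5 and the ELN site folds of 30.4 and 33.0, and both motifs pointed away from the gene. POSTN had 3 sites before its start. Those at -4.97 kb, with folds of 40.7 and 48.8, and at -8.28 kb, with 55.4 and 63.5, had the motif along the gene, and that at -55.5 kb, with 24.4 and 42.7, had it against the gene. The VCAN site at 19.6 kb had folds of 19 and 31.4 and lay under the H3K4me3 peak of the downstream starts. The LOX site at 1.70 kb had folds of 25.9 and 36. FN1 had a site at -12.9 kb with folds of 22.5 and 23.9 and its motif against the gene, and within the gene 1 shared region, at 71.9 kb, which had no match.

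CTCF replicate 2 had many more peaks inside FN1 and THBS1 than replicate 1. FN1 held 1 peak in replicate 1 and 6 in replicate 2, of which 5 were not called in replicate 1. THBS1 held 1 and 7, of which 6 were not called. Their folds were low, from 2.35 to 5.69 at FN1 and from 2.69 to 10.7 at THBS1. All 5 and all 6 overlapped H3K27ac peaks. These covered 91.8% and 87.3% of FN1 and 72.8% and 82.4% of THBS1, so overlap was likely for any peak there. Of the 5 and the 6, 0 and 1 had a motif match. In windows 1 kb from CTCF summits the share was 11.9% and 11.3%. Over the genome 14.3% of replicate 2 CTCF peaks had no counterpart in replicate 1, and 4.05% the other way. Whether these peaks mark CTCF binding was not tested.

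The other 45 genes of the same families that were listed gave a wider frame. In both replicates 41 of 45 had H3K4me3 at some annotated start, 30 had H3K27ac and 13 had CTCF. Over protein-coding genes the shares were 72.0%, 63.7% and 20.8%, so the H3K27ac count lay near the share of all genes. All 4 lysyl oxidase-like genes had both histone marks, and 14 of 15 elastic fibre genes had H3K4me3 and 14 H3K27ac. Among the 16 matricellular genes 15 had H3K4me3 and 6 had H3K27ac. SPARCL1, a relative of SPARC, and NCAN had no H3K4me3 at a start in either replicate. The most base pairs under H3K27ac, in the gene and 5 kb before it, were at LTBP1, with 87.1 and 82.3 kb, and LTBP2, with 81.4 and 88.0 kb, which encode latent TGF-beta binding proteins, and at NID1, with 58.6 and 58.0 kb, which encodes the basement membrane protein nidogen 1. The median over the 45 genes was 5074 and 5775 bp, against 16683 and 17982 bp over the 9 genes and 2446 and 2577 bp over protein-coding genes. These lengths were not set against gene length, and long genes have more room for peaks. The median width of the strongest H3K4me3 peak was 3127 and 3349 bp over the 45 genes, between the 9 genes and all protein-coding genes in both replicates.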

How the data were processed

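Per the labels and the study's methods, the authors aligned ChIP-seq reads to Sscrofa11.1 with Bowtie2 and called peaks on each replicate with MACS2. The methods also name a mapping-quality filter, removal of duplicates and a merge of replicate peaks at an irreproducible discovery rate of 0.01. The lists used here are those of single replicates, and the overlap of at least 1 bp that defined shared regions is a different rule. Each deposited list gives a score, the fold enrichment (a ratio over control) at the summit, −log10 p-values and −log10 q-values, and the summit position. Which control entered each call is not given in the sources used here. A cutoff of q = 0.01 is given in the methods, but q-values in the deposited lists go up to 0.0499. Peaks carry no read counts, so nothing was tested, and fold enrichment depends on library quality. Positions were converted to 1-based and joined to RefSeq with pandas 2.3.3 and numpy 2.4.6. The 9 genes and the gene lists were chosen with earlier results of these data known, and the 10 kb window for the strongest peak after values were seen. Other genes named were the most acetylated matrix genes, those without H3K4me3, those lying between a start and a peak, and the 3 most like FN1. CCN1, CCN2 and CCN3 were matched as CYR61, CTGF and NOV. The CTCF motif of 19 bases came from expectation maximisation on 600 peaks, and a match needed a score that 0.0001 of random positions reach. Overlap and motif code was tested on simulated data. Promoters were read from the genome.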

Additional observations from a re-analysis of the deposited data

How the results depend on the processing

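Over 15 results and 65 alternatives, 54 values stayed within the replicate spread or within 1.5 times the main count, 11 moved and 0 reversed. A count of the 9 genes cannot exceed 9. The counts at the gene start, 7 for H3K4me3 and 8 for H3K27ac, therefore could not move upward by this rule. With 5 kb in place of 1 kb, 5 genes had CTCF at the gene start in place of 2. Leaving out either replicate gave 25 to 37 H3K4me3 regions in gene bodies and 43 to 56 in the flanks, 95 to 106 H3K27ac regions in gene bodies and 14 to 28 CTCF regions in gene bodies. All these rose without replicate 1, where a call in 1 list was enough, and 11 of the added CTCF peaks were those at FN1 and THBS1. Leaving out peaks nearer to another coding start left 59 of 101 H3K27ac regions in the flanks. The median distance from gene start to H3K4me3 summit was 1107 ± 404 bp (SD, n = 2) and became 433 bp from the nearest transcript start. It stayed 1107 bp when the strongest peak was sought to 5 or 20 kb before the start, alternatives chosen after seeing the data. Ranked by peak number, the median percentiles were 91.5 for H3K4me3 and 87.2 for H3K27ac. No paired analysis was possible because the results come from no test.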
